A study of Mus musculus with 16 samples.

Results

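Transcript levels of 39 genes of the interferon response and of MHC class I antigen presentation were examined in preSC, cultured mouse cells that stand for a precancerous stage of small cell lung cancer. The genes were chosen by symbol, as a list that follows the pathway from interferon receptors to peptide loading, and all 39 were found among the 17655 genes listed. Cells were compared after infection with an empty lentivirus (empty, 8 samples) or with a lentivirus carrying Wnt5a, a secreted Wnt ligand (Wnt5a, 8 samples). Per the labels, both groups are Chga-positive neuroendocrine lung cells with the genotype Rb1 null, Trp53 null, Rbl2 heterozygous null. Doxycycline (1 µg/mL, 48 hours) was given to both before RNA was taken. Both groups therefore carry a lentivirus and the drug, and uninfected or undrugged cells were not analysed here. The labels do not say whether a group is 1 clone or a pool of infected cells.

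Interferons are cytokines released on infection. Type I interferon binds the receptor pair Ifnar1 and Ifnar2, and type II interferon binds Ifngr1 and Ifngr2. Janus kinases, among them Jak1 at both receptors and Tyk2 at the type I receptor, then activate STAT proteins. These, with Irf9 or alone, switch on antiviral genes through short DNA elements. MHC class I molecules, formed by a heavy chain such as H2-K1 or H2-D1 with B2m, display peptides that are cut by the proteasome and carried into the endoplasmic reticulum by Tap1 and Tap2. Interferons raise this display, and small cell lung cancer is known for low class I expression.

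Promoter sequences of the listed genes were searched for the letters of short DNA elements. RefSeq windows of GRCm38.p6, from 250 bases before to 50 after a start site, were matched by symbol for 34 of the 39 genes (40 windows). None was matched for Nlrc5, Usp18, Tap2, Parp14 and Parp9. The core of the interferon-stimulated response element, searched as GAAANNGAA on both strands, was found in the windows of 12 of the 34 genes, namely Isg15, Ifit1, Ifit3, Rsad2, Bst2, Eif2ak2, Adar, Trim25, Ifih1, Stat2, B2m and Erap1. Counted by window, 12 of the 40 held it, against 8.56% of all 32851 promoter windows. The stretches below are shown because they place the element in well-known effectors and in 2 genes of peptide display. Each reads 5′ to 3′ on the gene's strand, with up to 30 bases on either side, and capitals mark the element on either strand. Overlapping matches run together.

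Isg15 (chr4:156200846-156200926, - strand): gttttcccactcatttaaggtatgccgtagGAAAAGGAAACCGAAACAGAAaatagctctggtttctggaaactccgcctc
Ifit1 (chr19:34640750-34640843, + strand): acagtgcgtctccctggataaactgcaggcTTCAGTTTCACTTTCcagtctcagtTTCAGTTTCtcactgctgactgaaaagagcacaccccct
Ifit3 (chr19:34583344-34583465, + strand): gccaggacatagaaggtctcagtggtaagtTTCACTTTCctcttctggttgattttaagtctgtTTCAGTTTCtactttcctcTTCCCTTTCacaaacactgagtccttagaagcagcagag
Rsad2 (chr12:26456533-26456601, - strand): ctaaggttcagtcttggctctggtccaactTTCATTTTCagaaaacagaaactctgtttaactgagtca
Trim25 (chr11:88999364-88999432, + strand): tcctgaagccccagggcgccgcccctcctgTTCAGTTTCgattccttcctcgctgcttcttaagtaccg
Erap1 (chr13:74639814-74639888, + strand): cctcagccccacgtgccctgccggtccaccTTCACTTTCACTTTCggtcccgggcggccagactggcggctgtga
B2m (chr2:122147518-122147586, + strand): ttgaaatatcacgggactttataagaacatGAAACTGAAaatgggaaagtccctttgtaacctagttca

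The windows of Isg15, Ifit1 and Ifit3 held 3 matches each, and the first lay 78, 109 and 155 bases before the start site. In Rsad2 and B2m a single match lay 119 and 139 bases before the start, and in Trim25 and Erap1 the first lay 9 bases before it. Both windows of Ifit2 lacked these letters, as did those of H2-K1, H2-D1, Tap1 and Psmb9. The gamma-activated site, searched as TTCNNNGAA, was in the windows of 9 of the 34 genes (9 of the 40 windows), against 8.30% of all windows. The CCAAT box was in windows of 16 of the 34 genes (19 of the 40 windows), against 37.4% of all windows. A match describes letters only and does not show that a factor binds.

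Psmb9 and Tap1 are divergent neighbours, and their start sites lie 226 bases apart, so that 275 bases are common to both windows. This sequence is shown because the pair carries a proteasome subunit and a peptide transporter from a common upstream region, and the values of the pair are set side by side further on. Capitals mark the CCAAT box, on the opposite strand.

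Psmb9 (chr17:34187281-34187580, - strand): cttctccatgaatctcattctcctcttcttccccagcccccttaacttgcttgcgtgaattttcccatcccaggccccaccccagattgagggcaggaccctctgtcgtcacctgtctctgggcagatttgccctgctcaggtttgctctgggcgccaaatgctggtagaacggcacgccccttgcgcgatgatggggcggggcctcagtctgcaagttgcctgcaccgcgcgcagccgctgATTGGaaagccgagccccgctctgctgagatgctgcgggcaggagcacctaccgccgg

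The samples and the check of the labels were examined next. Values are normalised read counts, in which the read count of a gene is divided by 1 factor per sample. Samples held 7526676 to 8859862 reads. Within a group, samples 1 to 4 differed from one another by little more than counting noise, and so did samples 5 to 8, with an index of dispersion (chi-square over its degrees of freedom) of 0.987 to 1.05 in 24 such pairs against 5.23 to 5.44 in the 32 other pairs of a group. Each set of 4 was counted as 1 sample, libraries A and B, which gives 2 libraries per group with 30220749 to 35315408 reads. The labels do not call them separate cultures, so the p-values measure only the spread between these libraries, which may be technical. Wnt5a was 122 ± 31.4 (SD, n = 2 libraries) in the empty and 1279 ± 325 (SD, n = 2 libraries) in the Wnt5a libraries, with 3.38 as the log2 difference (adjusted p = 0.0010, limma). Reads of Rb1, labelled null, were present at 3223 ± 8.73 in the empty and 3193 ± 34.0 in the Wnt5a libraries (SD, n = 2 libraries). Trp53, also labelled null, was at 67.4 ± 3.71 and 90.9 ± 9.04 (SD, n = 2 libraries; log2 difference 0.42, limma adjusted p = 0.187). Rbl2 was at 321 ± 4.56 and 351 ± 25.6 (log2 difference 0.13, limma adjusted p = 0.586). Values per whole gene do not show which exons the reads come from and check nothing about these deletions.

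Cell type markers were read to check the labelled cells. All 8 neuroendocrine markers were detected, among them Chga at 3007 to 4369.6 per library, and 0 of the 8 passed the test. Of 10 leukocyte markers 5 were listed, with a summed value of 11.0 to 15.5 per library. Only 1 of them had a mean value of at least 10, and it made up most of that sum (log2 difference -0.006). The other 4 stayed at or below 3.28 per library, and Csf1r and Cd3e were each at 0 in 3 of the 4 libraries. Endothelial markers summed to 3.52 to 5.79. Of 6 lung epithelium markers 4 were listed, with a summed value of 42.5 to 47.9 per library, and 0 of the 2 tested passed. Of 5 fibroblast markers 4 were listed, and their sum of 604 and 353 in empty A and B, and 244 and 248 in Wnt5a A and B, was almost all Dcn, while Col1a1 and Col1a2 stayed at or below 3.56. In such bulk RNA, fewer cells of a type and less RNA per cell cannot be told apart.

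The 4 most abundant of the listed genes, H2-K1, H2-D1, B2m and Psmb8, belong to antigen presentation, while the next, Irf1, exceeded the other 6 genes of that group. Levels were compared between genes as normalised value per kb of transcript, over the mean of the 4 libraries. H2-K1 and H2-D1, the classical class I heavy chains, stood at 1292 and 840 per kb, and their partner B2m stood at 355 per kb. The median of all listed genes was 49.97 per kb. H2-K1 lay at the 98.3 and H2-D1 at the 96.7 percentile of all genes with a length. Reads of class I heavy chains can come from near-identical copies, so these levels carry that uncertainty.

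Of the other 7 antigen presentation genes, 6 were also above the median gene. The immunoproteasome subunit Psmb8 was at 297 per kb, the peptide editor Tapbp at 182, Psmb9 at 147 and the trimming peptidase Erap1 at 123. Tap1 and Tap2, the chains of the peptide transporter, were level with each other at 93.3 and 93.2 per kb. Nlrc5, the activator of class I transcription, was the exception at 3.38 per kb.

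Of the signal transduction genes, 3 of the 6 receptors and kinases, 4 of the 5 transcription factors and all 3 sensing genes lay above the median gene. Ifnar1 reached 182 per kb and its partner Ifnar2 26.3, while Ifngr1 was at 70.9 and its partner Ifngr2 at 29.8. In both receptors 1 chain was thus the less abundant transcript. Jak1 stood at 98.5 and Tyk2 at 48.3 per kb. Among the transcription factors Irf1 was highest at 240 per kb, followed by Irf3 at 137, Stat2 at 73.8 and Irf9 at 55.6, while Irf7 was at 11.1. The sensing genes Tbk1, Ifih1 and Mavs stood at 152, 137 and 83.4 per kb.

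The induced effectors spanned the widest range, and 7 of the 15 were above the median gene. Ifi35 (174), the ubiquitin ligase Trim25 (152) and the RNA-editing enzyme Adar (134 per kb) led. Parp9 (84.0), Usp18 (75.3), the RNA-activated kinase Eif2ak2 (74.0) and Dtx3l (68.5 per kb) followed, and Ifit2 (42.7), Bst2 (39.01), Rsad2 (28.6) and Parp14 (15.05 per kb) lay below the median gene. At the bottom were Oasl2 (6.77), Isg15 (6.48), Ifit1 (3.72) and Ifit3 (0.67 per kb). Isg15, Ifit1 and Ifit3, whose windows held 3 matches each to the response element letters, some overlapping, were the 3 lowest of the effectors. Usp18, Parp9 and Parp14 had no window, and a link between matches and level was not tested.

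**Figure D1:**
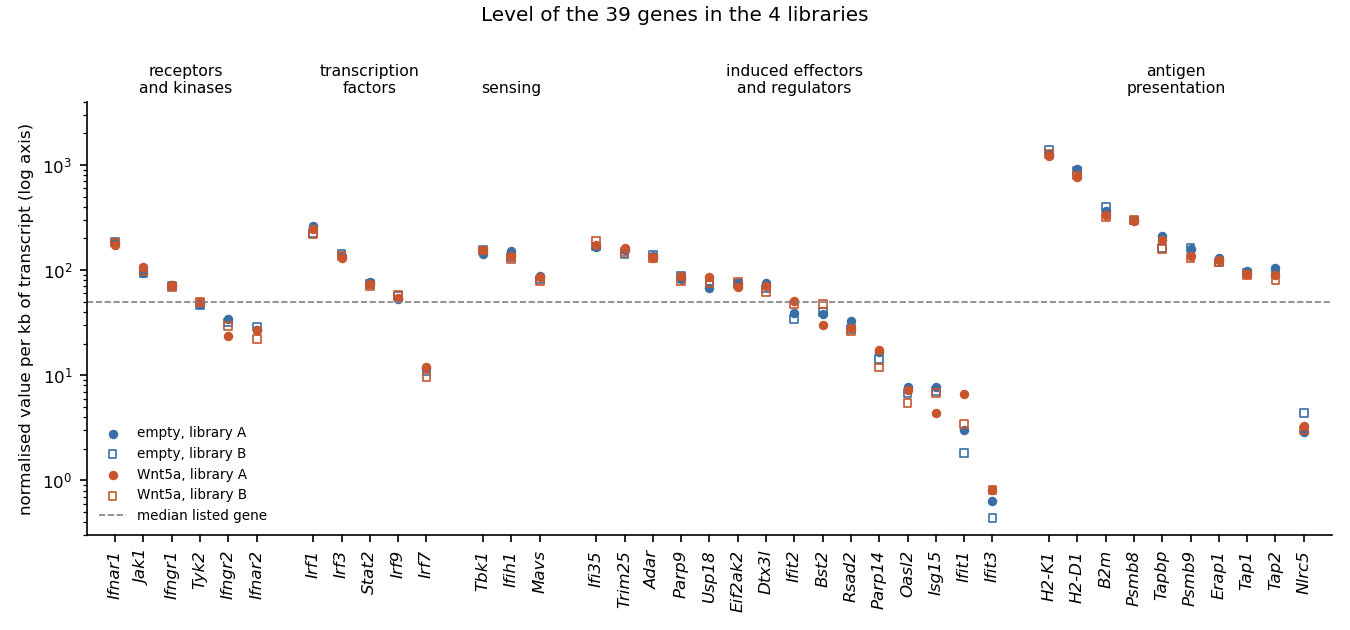
Normalised value per kb of transcript (log axis) of the 39 genes in each of the 4 libraries, grouped by role. Filled circles are A and open squares B libraries, blue for empty and orange for Wnt5a, and the dashed line is the median listed gene at 49.97 per kb. H2-K1 and H2-D1 stand at the top and Ifit3 at the bottom, and the 4 symbols of a gene mostly coincide.

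No listed gene passed the test between Wnt5a and empty cells. Of the 39, 36 had a mean value of at least 10 and were tested, and 0 had an adjusted p under 0.05 (limma over all 12357 genes tested), against 2.06% of all genes tested (254, of which 171 were higher and 83 lower). The lowest adjusted p among the 36 was 0.130, and edgeR and DESeq2 on the recovered reads also called 0 of them. At an unadjusted p under 0.05 there were 5 (13.9%, limma), Ifit2 higher and Psmb9, H2-D1, B2m and Tap2 lower, against 16.1% of all genes tested. The 4 lower genes are 11.1% of the 36, against 7.45% of all genes tested that were lower at that level.

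The estimates leaned to lower values in the Wnt5a libraries. Of the 36, 28 were below 0 and 8 above (77.8% below, against 49.3% of all genes tested). The median log2 difference was -0.07, against 0.0026 for all genes tested. Libraries of the groups did not overlap for 10 genes on the lower side (27.8%, against 21.5% of all genes tested) and 5 on the higher side (13.9%, against 22.7%), and they overlapped for 21. The limits of the 95% intervals lay between -0.75 and 0.69 for all 36 genes, and the widest belonged to genes with few reads such as Nlrc5 and Bst2.

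**Figure D2:**
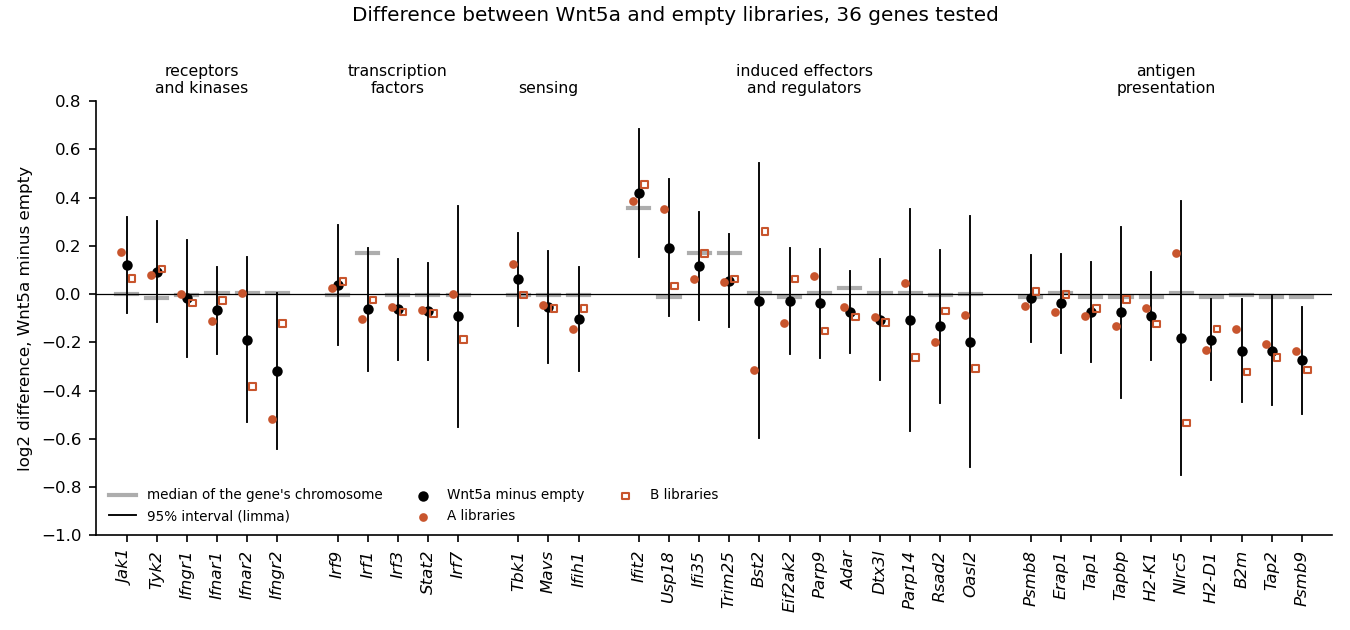
Log2 difference between Wnt5a and empty libraries (y axis) for the 36 genes tested, grouped by role. Black points with lines are the limma estimates with 95% intervals, orange circles and squares the differences within the A and the B libraries, and grey bars the median of all tested genes on the gene's chromosome. All 10 antigen presentation estimates lie below 0, and Ifit2 lies beside its chromosome's median.

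Receptors and kinases showed no common direction, and 0 of the 6 passed the test. Ifngr2, a chain of the type II receptor, ran from 100.4 through a median of 120 to 141 in the 8 empty samples and from 83.8 through 97.3 to 119 in the 8 Wnt5a samples. The samples overlapped although the library means did not, and the lowest Wnt5a samples all belonged to library A. Its log2 difference was -0.32 (SE 0.14, 95% interval -0.64 to 0.00, limma adjusted p = 0.319), made up of -0.52 between the A and -0.12 between the B libraries.

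Ifnar1, the most abundant receptor chain per kb, ran from 678 through 735 to 750.1 in the empty and from 660.1 through 681 to 748 in the Wnt5a samples. The sample ranges overlap over most of their length, and the difference was -0.07 (SE 0.08, 95% interval -0.25 to 0.11, adjusted p = 0.758, limma). Ifnar2 differed by 0.00 between the A and by -0.38 between the B libraries, so its estimate of -0.19 came from the B pair. Jak1 and Tyk2 were above 0 at 0.12 and 0.09, and Ifngr1 was at -0.02. The library means did not overlap between groups for 4 of the 6, Jak1 and Tyk2 on the higher side (33.3%, against 22.7% of all genes tested) and Ifngr2 and Ifnar1 on the lower side (33.3%, against 21.5%).

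The 5 transcription factors lay close to 0, with a median of -0.06, and 0 of them passed the test. Stat2, the STAT of the type I response, ran from 298 through 334 to 364 in the empty and from 291 through 314 to 349 in the Wnt5a samples. Irf1 ran from 447 through 512 to 595 in the empty and from 453 through 492 to 540 in the Wnt5a samples. Both genes overlapped broadly between groups.

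For Stat2 the log2 difference was -0.07 (SE 0.08, 95% interval -0.27 to 0.13, limma adjusted p = 0.770). For Irf1 it was -0.06 (SE 0.11, 95% interval -0.32 to 0.19, limma adjusted p = 0.855), and its libraries A and B differed by more than the groups did (B minus A -0.24 in empty and -0.16 in Wnt5a cells). Irf1 lies on chromosome 11, where the median log2 difference of the 1020 genes tested was 0.17, and relative to that median its difference is -0.23. Irf3, Irf7 and Irf9 were at -0.06, -0.09 and 0.04.

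The sensing genes gave small differences of either sign, and 0 of the 3 passed the test. Ifih1, a receptor for long double-stranded RNA, ran from 700.1 through 767 to 871 in the empty and from 664 through 718 to 762 in the Wnt5a samples. Its samples overlapped, and empty library A alone lay above the rest (log2 difference -0.10, SE 0.09, 95% interval -0.32 to 0.11, limma adjusted p = 0.679). Tbk1, the kinase that activates Irf3, ran from 421 through 448 to 499 in the empty and from 446 through 472 to 497 in the Wnt5a samples (log2 difference 0.06, SE 0.08, 95% interval -0.13 to 0.25, limma adjusted p = 0.803). Mavs, the mitochondrial adaptor between them, was at -0.05.

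Among the induced effectors, Ifit2 had the largest estimate of all 36 genes. Ifit2, an RNA-binding antiviral protein, ran from 128 through 137 to 155 in the 8 empty samples and from 165 through 183 to 207 in the 8 Wnt5a samples. All Wnt5a samples thus lay above all empty samples. The log2 difference was 0.42 (SE 0.11, 95% interval 0.16 to 0.69), with an unadjusted p of 0.0074 and an adjusted p of 0.130 (limma). It was 0.39 between the A and 0.45 between the B libraries. An exact permutation test of the libraries gave p = 0.3333 (two-sided), the smallest that 2 against 2 allows.

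Ifit2 lies on chromosome 19, where the median log2 difference of the 412 genes tested was 0.36. Relative to that median, its difference was 0.06 (limma adjusted p = 0.901). The part of the chromosome-wide shift in its value was not tested further. Without empty library A, which leaves empty library B alone, the log2 difference of Ifit2 was 0.51.

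Ifi35, the most abundant effector per kb, ran from 203 through 227 to 246 in the empty and from 222 through 245 to 270.0 in the Wnt5a samples. The samples overlapped, while the library means did not. Its difference was 0.12 (SE 0.09, 95% interval -0.11 to 0.34, limma adjusted p = 0.644). It lies on chromosome 11 with its median of 0.17, and relative to that median the difference turns to -0.05. Trim25, also on chromosome 11, turned in the same way from 0.06 to -0.11.

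None of the remaining effectors passed the test. Usp18, which removes Isg15 from proteins, was at 119 and 129 in empty A and B, and 152 and 132 in Wnt5a A and B, with 0.35 between the A and 0.03 between the B libraries. Bst2, the tethering protein of enveloped viruses, went opposite ways, -0.31 between the A and 0.26 between the B libraries, at only 23.97 to 37.97 per library. Adar (-0.07), Dtx3l (-0.11), Rsad2 (-0.13) and Oasl2 (-0.20) were below 0 within both pairs of libraries. Parp9 (-0.04), Parp14 (-0.11) and Eif2ak2 (-0.03) changed sign between the pairs.

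Isg15, Ifit1 and Ifit3, which are among the most strongly induced genes in an interferon response, had mean values under 10 and were left out of the fit. Isg15, a ubiquitin-like modifier, had 21 and 21 reads in the empty libraries and 14 and 22 in the Wnt5a libraries, with 0 to 10 reads per sample. Ifit1 had 29 and 19 reads in empty A and B, and 75 and 39 in Wnt5a A and B, or 2 to 11 reads per empty and 7 to 26 per Wnt5a sample. Ifit3 had 4, 3, 6 and 6 reads, at or just above the floor of 3 reads. Ifit1 was thus higher in both Wnt5a libraries. In the fit without the filter on low values none of them passed the threshold, with log2 differences of -0.35 for Isg15, 0.92 for Ifit1 and 0.32 for Ifit3 (limma adjusted p = 0.654, 0.403 and 0.561). Ifit1 and Ifit3 lie on chromosome 19 like Ifit2, and both belong to a family with close copies, so that reads may be split between them.

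**Figure D3:**
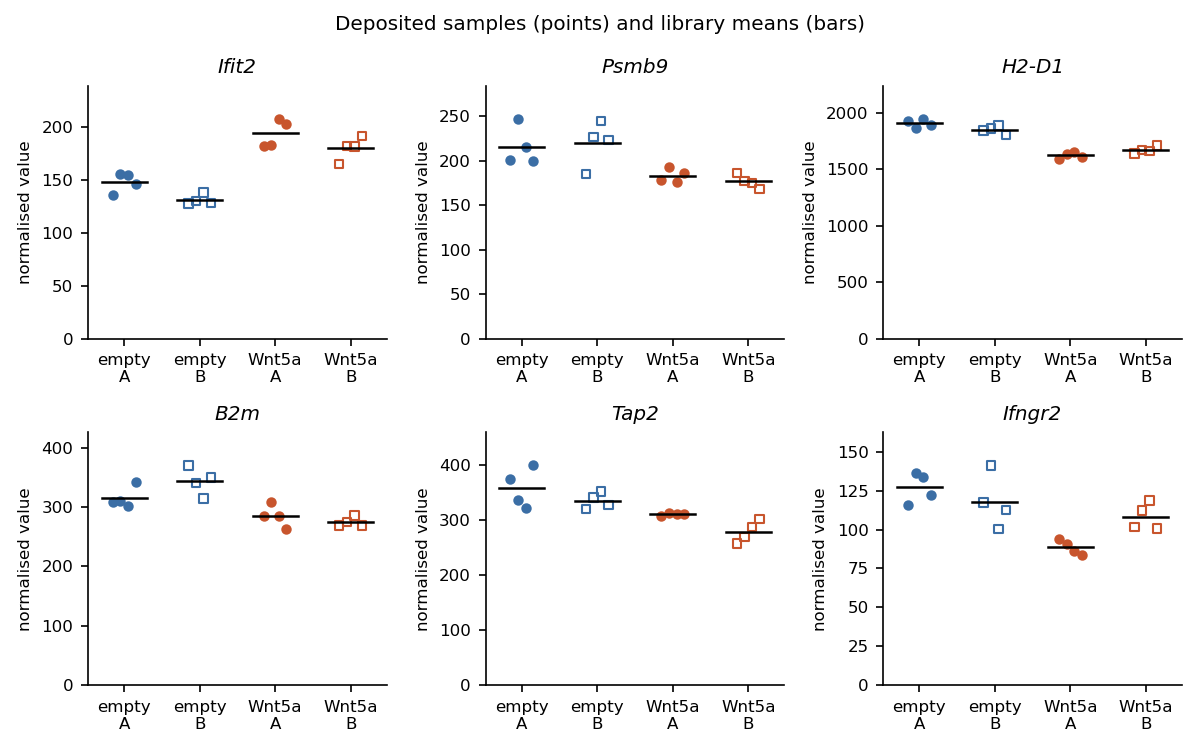
Normalised value in each deposited sample (points) and library mean (bars) for the 6 listed genes with the smallest unadjusted p, by library. In Ifit2 every Wnt5a sample lies above every empty sample, in H2-D1 every Wnt5a sample lies below, and in Ifngr2 Wnt5a library A lies apart from the other 3.

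Among the role lists, the antigen presentation genes had the most even direction. All 10 estimates were below 0, with a median of -0.14, and in 6 of the 10 both Wnt5a libraries lay below both empty libraries (60.0%, against 21.5% of all genes tested). None of the 10 passed the test over all genes. Within the A libraries the median was -0.11 and within the B libraries -0.13, and 8 of the 10 were lower in both pairs (80.0%, against 34.7% of all genes tested). Psmb8 and Nlrc5 were the exceptions. With 1 library left out the count below 0 was 8 or 9. Related genes outside this group did not all lean below 0. Of 14 further MHC class I and peptide-loading genes tested, 10 were below 0 and 4 above, with a median of -0.03. Of 7 further proteasome catalytic and activator subunits tested, 6 were above 0 and 1 below.

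Psmb9, an immunoproteasome subunit that replaces the constitutive subunit Psmb6, had the smallest p of the group. It ran from 185 through 219 to 247 in the 8 empty and from 168 through 178 to 192 in the 8 Wnt5a samples. The samples overlapped at the edge only, since a single empty sample lay within the Wnt5a range. The log2 difference was -0.28 (SE 0.09, 95% interval -0.50 to -0.06), with an unadjusted p of 0.0214 and an adjusted p of 0.205 (limma).

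H2-K1, the most abundant listed gene per kb, ran from 1972 through 2175 to 2305 in the empty and from 1943 through 2031 to 2108 in the Wnt5a samples. The samples overlapped, and the difference was -0.09 (SE 0.08, 95% interval -0.27 to 0.09, limma adjusted p = 0.663). H2-D1 ran from 1805 through 1880 to 1949 in the empty and from 1595 through 1649 to 1714 in the Wnt5a samples. All Wnt5a samples of H2-D1 thus lay below all empty samples, and its difference was -0.19 (SE 0.07, 95% interval -0.36 to -0.02, limma adjusted p = 0.251). The per-kb ratio of H2-K1 to H2-D1 was 1.41 and 1.57 in empty A and B, and 1.59 and 1.60 in Wnt5a A and B.

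B2m, the light chain common to class I molecules, was at 316 and 344 in empty A and B, and 286 and 275 in Wnt5a A and B, a difference of -0.23 (95% interval -0.45 to -0.02, limma adjusted p = 0.264). Its samples overlapped, from 303 to 370.5 in the empty and from 264 to 309 in the Wnt5a samples. Tap2 was at 359 and 335 in empty A and B, and 311 and 279 in Wnt5a A and B, a difference of -0.23 (95% interval -0.46 to -0.01, limma adjusted p = 0.292). Tap2 samples did not overlap between the groups, with 320.4 the lowest of the empty and 312 the highest of the Wnt5a samples.

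Tap1, which pairs with Tap2 in the transporter and faces Psmb9 across the sequence shown, was at 289 and 276 in empty A and B, and 272 and 265 in Wnt5a A and B. Its difference of -0.07 (95% interval -0.28 to 0.13) was nearer to 0 than those of Psmb9 and Tap2, and the intervals of all of them overlap. The per-kb ratio of Tap1 to Tap2 was 0.940 and 0.960 in empty A and B, and 1.02 and 1.11 in Wnt5a A and B. For Tapbp the libraries A and B differed by more than the groups did, with B minus A of -0.38 and -0.28. Psmb8, Erap1 and Nlrc5 were at -0.02, -0.04 and -0.18, and of these Psmb8 and Nlrc5 changed sign between the pairs. Nlrc5 was low, at 21.8 to 33.4 per library.

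Transcripts of each immune proteasome subunit were set against its constitutive subunit as per-kb ratios. Such ratios do not show which subunits are built into proteasomes. Psmb9 over Psmb6 was 0.141 and 0.120 in empty A and B, and 0.0988 and 0.0787 in Wnt5a A and B (exact permutation p = 0.3333, two-sided, the smallest possible). Psmb6 lies on chromosome 11 with its median of 0.17. The ratio moves with Psmb6 as well, and the log2 difference of Psmb9 alone was -0.28. Psmb8 over Psmb5 was 0.365 and 0.320 against 0.341 and 0.314 (exact permutation p = 0.667), and Psmb10 over Psmb7 was 0.0983 and 0.0761 against 0.0860 and 0.0816 (exact permutation p = 1.00). The constitutive subunit was thus the more abundant transcript of each pair in all 4 libraries.

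Chromosome 17 carries 7 of the 10 antigen presentation genes, and its median log2 difference over 620 genes tested was -0.01. Leukocyte markers, whose cells express class I strongly, were at the low levels given above in all libraries. The fibroblast marker Dcn was lower in the Wnt5a libraries beside these genes (log2 difference -0.89, limma adjusted p = 0.131), and 7 of the 8 neuroendocrine markers had estimates below 0. Their part in the antigen presentation values was not tested.

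**Figure D4:**
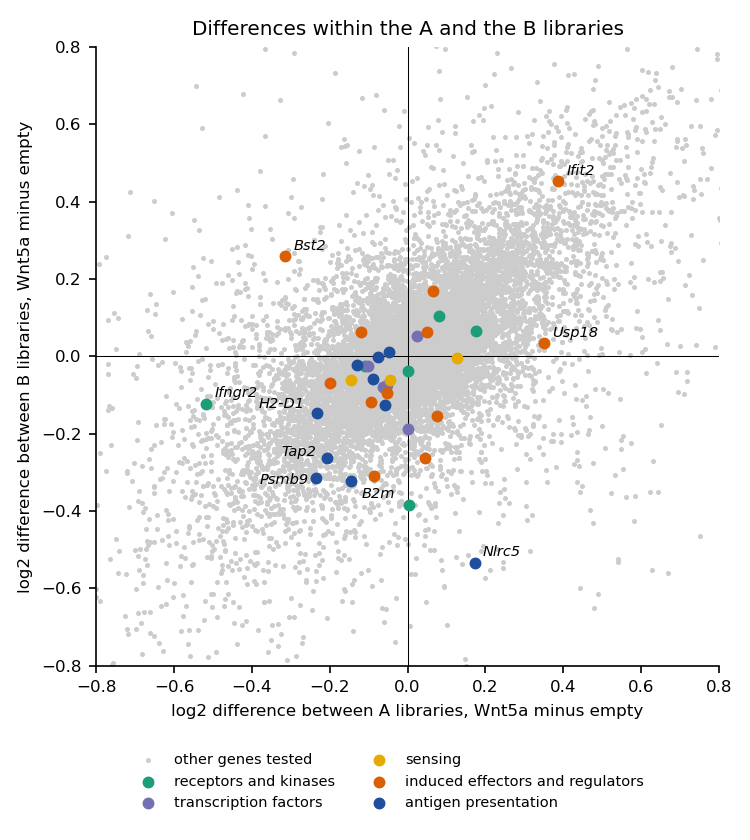
Log2 difference between Wnt5a and empty cells within the A libraries (x axis) and within the B libraries (y axis) for all genes tested (grey) and the 36 listed genes (coloured by role). Genes outside the axis range of -0.8 to 0.8 are not drawn. Of the antigen presentation genes, 8 of 10 lie at the lower left, below 0 on both axes, while Bst2 and Nlrc5 have opposite signs on the axes.

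Over the 36 genes, the median differences between groups and between libraries of 1 group were close. The median absolute log2 difference was 0.09 between groups, 0.10 between empty A and B, and 0.11 between Wnt5a A and B. Over all genes tested these values were 0.11, 0.13 and 0.11. A group difference is between means of 2 libraries and B minus A between single libraries, so the sizes are not like for like. In antigen presentation the values were 0.14, 0.11 and 0.05. In no other role list did the value between groups exceed both others, with receptors and kinases nearest (0.106, against 0.038 and 0.111). Of the wider lists read further on, further receptors, kinases and signal regulators did so (0.120, against 0.0996 and 0.103). MHC class II genes did so too (0.116, against 0.0502 and 0.0815), and the other wider lists with tested genes did not. B differed from A in the same direction in both groups for 24 of the 36 genes (66.7%, against 71.3% of all genes tested). Tapbp, Parp14, Irf1 and Rsad2 were among those lower in B in both groups. Differences between Wnt5a and empty cells had the same sign within A and within B in 26 of the 36 genes (72.2%, against 71.2% of all genes tested). Of these, 19 were lower in both pairs (52.8%, against 34.7% of all genes tested) and 7 higher (19.4%, against 36.5%).

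The rest of the pathway was read from the same fit. A further 139 genes in 7 lists were looked up, of which 115 were listed, 81 were tested and 0 passed the test (limma, lowest adjusted p 0.152). At an unadjusted p under 0.05 there were 7 (8.64%, against 16.1% of all genes tested). The 4 on the higher side were Psme3, Ifitm3, Canx and Rfx5, at 0.26, 0.37, 0.21 and 0.21. The 3 on the lower side were Lnpep, Tmem173 and Ifnlr1, at -0.38, -0.51 and -0.39. These genes were named after their values were seen. Of them, Psme3 and Canx lie on chromosome 11.

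Interferon genes themselves, 15 ligands, were all missing from the listed genes. Of 54 other interferon-induced genes 51 were listed and 28 tested, and 23 were too low. Among the low ones were Mx1 (4.59 to 8.21 per library), Oas2 (0.235 to 0.828), Gbp2 (0 in 3 libraries and 0.236 in the other) and the chemokine Cxcl10 (1.38 to 5.39), all well known as strongly induced by interferon. Others were abundant, such as the nucleotide kinase Cmpk2, a neighbour of Rsad2, at 865 to 1010.0 per library. The 28 tested had a median difference of -0.04.

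Most of the MHC class II chains and their activator were near 0. Of 12 genes 8 were listed and 4 tested, namely the general regulators Rfx5, Rfxap and Rfxank, and the peptide-loading chain H2-DMa at 25.6 to 31.8 per library. The class II activator Ciita was at 2.04 to 3.51 per library, the invariant chain Cd74 at 0 to 0.470 and the chain H2-Eb1 at 0 to 0.552.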

How the data were processed

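RNA was measured in 16 samples, 8 per group. Per the submitters' processing notes, TopHat, Bowtie, HTSeq and DESeq2 were used; their settings, the build and the annotation are not given in the sources used here. Per the labels' protocols, oligo-dT purified mRNA from 500 ng of RNA went into the libraries. The deposited signal values of each sample are whole multiples of 1 step of 0.934 to 1.11 (100% whole within 0.001), so they are read counts divided by 1 factor per sample, and division by the step gave back the reads. Strand use is not known, so overlapping and antisense genes are uncertain.

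Samples of a group with an index of dispersion under 1.5 (genes with at least 10 mean reads) were averaged as 1 library. Genes with a mean value of at least 10 (12357) were compared with limma 3.58.1 (R 4.3.3; trend) on log2(value + 1), which understates changes of low genes, with Benjamini-Hochberg adjustment over all of them and a threshold of 0.05. As the values are not counts, edgeR 4.0.16 on recovered reads was an alternative; it called 246 genes. DESeq2 1.42.0, other pseudocounts, filters and scalings, a block and omission of each library were also tried. The limma step was also run on simulated counts. Their spread came from a fit with group and library letter, so it left out the shift between A and B libraries. Nothing is concluded from that run here. A floor of 3 reads covers counting error only.

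Lengths came from the longest coding GENCODE M21 transcript (17347 genes), and chromosomes and promoters from RefSeq GRCm38.p6 (17619 symbols matched, 379 by synonym). The genes and lists were chosen with earlier results of these data known. Given sample by sample were, per role, the gene with the smallest p and that with the highest level per kb, plus any gene passing the test; H2-D1, B2m and Tap2 were added after their values were seen.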

Additional observations from a re-analysis of the deposited data

How the results depend on the processing

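The call that 0 of the 36 tested genes passed the threshold held with pseudocounts of 0.1 and 10, without a filter on low values, with a minimum of 50, without trend, with median centring, quantile normalization, edgeR and DESeq2, and after removal of chromosome medians. With library A or B as a replicate block the count became 4 of the 36, against 2095 of all 12357 genes tested. The 4 were Ifit2, H2-D1, Tap2 and Psmb9 (adjusted p 0.012, 0.033, 0.039 and 0.040 in limma). With all 16 samples counted separately it became 9, against 4377 of all genes tested. With all 16 samples and the replicate block it became 14, against 6012. In each of these settings a smaller share of the 36 than of all genes tested passed. Libraries of the same letter share only their sample numbers in the labels, and nothing there says that a number marks a common batch. Across the 12357 genes the A libraries of both groups, and the B libraries, deviated together (Pearson r = 0.44, Spearman rho = 0.53, across genes, which are not independent), and with 2 pairs this does not settle the pairing. With 1 library left out, 0 or 1 passed, the 1 being Ifit2 without empty library A, where the lone library is assumed to vary like the other group.

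The count over all genes, 254, was 146 without a filter, 102 at a minimum of 50, 158 without trend, 2095 with the replicate block (1073 higher, 1022 lower), 4377 with all 16 samples, 6012 with all 16 samples and the block, 538 by DESeq2 and 138 to 1098 with 1 library left out (493 without empty A, 1098 without empty B, 166 without Wnt5a A, 138 without Wnt5a B). After removal of chromosome medians it was 206, of which 117 were higher, against 171 of 254.

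The median of the listed genes was -0.0659 at a minimum of 50, -0.0890 with median centring, -0.0779 with quantile normalization and -0.098 to -0.017 with 1 library left out. The estimate of Bst2 turned to 0.0049 by edgeR and 0.0030 by DESeq2, and those of Ifi35 and Trim25 to -0.0538 and -0.114 after removal of chromosome medians. With 1 library left out, the ranges crossed 0 for Bst2 (-0.35 to 0.29), Parp14 (-0.38 to 0.16), Nlrc5 (-0.48 to 0.12), Tapbp (-0.27 to 0.12), Irf1 (-0.182 to 0.0547), Irf7 (-0.236 to 0.0509), Eif2ak2 (-0.104 to 0.0477), Erap1 (-0.12 to 0.04), Parp9 (-0.112 to 0.0349), Ifngr1 (-0.0624 to 0.0279), Mavs (-0.117 to 0.0126), Irf9 (-0.0205 to 0.0964), Psmb8 (-0.0391 to 0.0035), Oasl2 (-0.40 to 0.00097) and Trim25 (-0.00065 to 0.11). The cause was not tested. Depth limits Isg15, Ifit1 and Ifit3, with 3 to 75 reads per library.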
